A study of Homo sapiens with 6 samples.

Results

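The MHC class II genes and their transcriptional regulators CIITA and RFX5 were followed in melanoma cells with and without the cancer-testis antigen CT16 (gene symbol PAGE5). The members are HLA-DRA, HLA-DRB3, HLA-DRB4, HLA-DPA1, HLA-DPB1, HLA-DMA, HLA-DMB, CD74, CIITA and RFX5, taken by symbol from the annotation of the array, and every probe listed for these symbols was read. They make up 10 of the 18665 genes with a probe and 16 of the 48803 probes. WM-266-4, an established human melanoma cell line, had been transfected stably with plasmid pEXPR-IBA103 carrying CT16 cDNA, and the control was the same line with the intact pEXPR-IBA103 plasmid. Both kinds of cells were selected and kept in G418, an antibiotic against which the plasmid gives resistance, so resistance and drug are shared by all groups. RNA came from 3 separate cultures per plasmid, and each was hybridized to 1 bead array, giving 6 arrays. The sources used here do not state whether each stable line was a single clone or a pool of cells, and p-values measure the spread between cultures of 1 line per plasmid.

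MHC class II molecules are pairs of an alpha and a beta chain that display peptides from engulfed proteins to CD4+ T cells. The new pair is first filled by the invariant chain, the product of CD74, and HLA-DM, itself an alpha and beta pair, later helps to exchange the remaining invariant chain fragment for a peptide. Transcription of these genes depends on a short promoter module whose X box is bound by the RFX complex and whose Y box is bound by NF-Y, and on the coactivator CIITA, which joins these factors without binding DNA itself. B cells, dendritic cells and macrophages make class II molecules all the time, interferon gamma induces them in many other cells through CIITA, and a part of melanomas make them without that stimulus.

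Promoter stretches of 4 members are shown because class II genes are known to share one promoter module, and these windows hold the Y box letters. They come from RefSeq on build GRCh38.p14, where 6 of the 10 members had a window of 300 bases, from 250 before the start of the gene to 50 after it. Each printed stretch runs 5' to 3' on the strand of the gene, from base -150 to base -21 before the start, and capitals mark the letters of a match. HLA-DMA lies at chr6:32953118-32953247 and HLA-DMB at chr6:32941049-32941178, both on the minus strand. CD74 lies at chr5:150412931-150413060 on the minus strand and HLA-DPB1 at chr6:33075840-33075969 on the plus strand.
HLA-DMA: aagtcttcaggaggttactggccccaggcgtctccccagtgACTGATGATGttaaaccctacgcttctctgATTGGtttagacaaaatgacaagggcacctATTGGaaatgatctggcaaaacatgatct
HLA-DMB: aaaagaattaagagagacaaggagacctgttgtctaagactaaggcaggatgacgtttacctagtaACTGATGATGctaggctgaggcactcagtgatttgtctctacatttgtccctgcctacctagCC
CD74: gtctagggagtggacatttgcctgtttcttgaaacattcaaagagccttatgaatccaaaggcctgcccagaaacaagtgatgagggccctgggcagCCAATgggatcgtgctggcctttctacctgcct
HLA-DPB1: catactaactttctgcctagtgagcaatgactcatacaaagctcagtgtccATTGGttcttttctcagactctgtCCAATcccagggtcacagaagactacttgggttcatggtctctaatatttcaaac
The Y box was searched as its core letters ATTGG on both strands, which occurred in 34.6% of the 35116 promoter windows in the table. No file used here gives the letters of the X box, so it was not searched. In its place the longest run of letters shared by the windows of the HLA-DM genes was found, ACTGATGATG, 10 bases that occurred on either strand in 0.0854% of all windows. Since the run was taken from these windows, its presence there is no finding. HLA-DMA held the shared run at base -109 and the Y letters at -79 and -49. HLA-DMB held the shared run at -84, and its Y letters, on the opposite strand from base -22, run past the end of the printed stretch. CD74 held the Y letters at -53 on the opposite strand and HLA-DPB1 held them at -99 and, on the opposite strand, at -75, and neither window held the shared run. RFX5 had 3 windows, of which the first held the Y letters on the opposite strand at -177 and -95, and the windows of HLA-DPA1 held neither run. A match is a run of letters and not a measured binding site. None of the printed genes passed the test of signals given below, and HLA-DRA and HLA-DRB3, which did, had no window. Whether the module has a part in the signal differences was not tested.

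Each array gave a signal and a detection p-value for every probe, and a probe is called detected where that p was under 0.01. The number detected ran from 16200 (33.2%) on CT16 replicate 3 to 18789 (38.5%) on CT16 replicate 1, and the median signal lay between 63.6 and 65.6. CT16 replicate 3 stood apart, with correlations of 0.884 to 0.936 with the other arrays against 0.955 to 0.994 among those. Its highest correlation was with control replicate 1, and the deviations of these 2 arrays from their group means correlated at 0.75 over the tested probes. A PAGE5 probe (ILMN_2363141) read 80.7, 84.6 and 94.2 in the controls and 117, 119.7 and 171 in CT16 cells, without overlap, although its log2 difference of 1.11 ± 0.37 (SE) did not pass the test (limma, adjusted p = 0.582). A second PAGE5 probe (ILMN_1744656) differed by 0.02 and no array detected ILMN_1695992. The sources used here do not say whether these probes lie within the transfected cDNA. The study itself reported CT16 in the CT16 transfected cells by quantitative RT-PCR and Western blot. Of 8 melanocytic markers with a probe, PMEL, MLANA, TYR, TYRP1, SOX10, MITF and S100A1 were detected on all 6 arrays.

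HLA-DRA and HLA-DRB3 fell past the threshold of an adjusted p of 0.05 (limma, Benjamini-Hochberg over 18156 probes), 2 of 9 tested member genes, where 0.0799% of all tested genes were called lower. The other 7 did not pass. All 9 had a negative CT16 minus control difference, with a median of -1.22 on the log2 scale beside -0.03 over all 11264 tested genes. In 8 of the 9, all but HLA-DMB, every CT16 array lay below every control array on the normalized log2 scale, which held for 7.4% of all genes. An unadjusted p under 0.05 with a lower level was found in 7 of the 9, against 3.1% of all genes. A member entered the test where at least 3 of 6 arrays detected it, and CIITA did not enter. HLA-DRB3 and HLA-DPB1 entered through the controls alone, since no CT16 array detected them, so they had to differ and their part in these counts is no support. The lowest difference is that of HLA-DRB3 and the median is that of HLA-DPB1, both set against CT16 signals at background. Of the 7 members detected on all 6 arrays, 1 passed, 6 did not overlap, 5 had an unadjusted p under 0.05, and the differences ran from -1.75 to -0.28 with a median of -1.07. The study named class II presentation from these same arrays, so the direction of the list is not independent evidence.

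**Figure D1:**
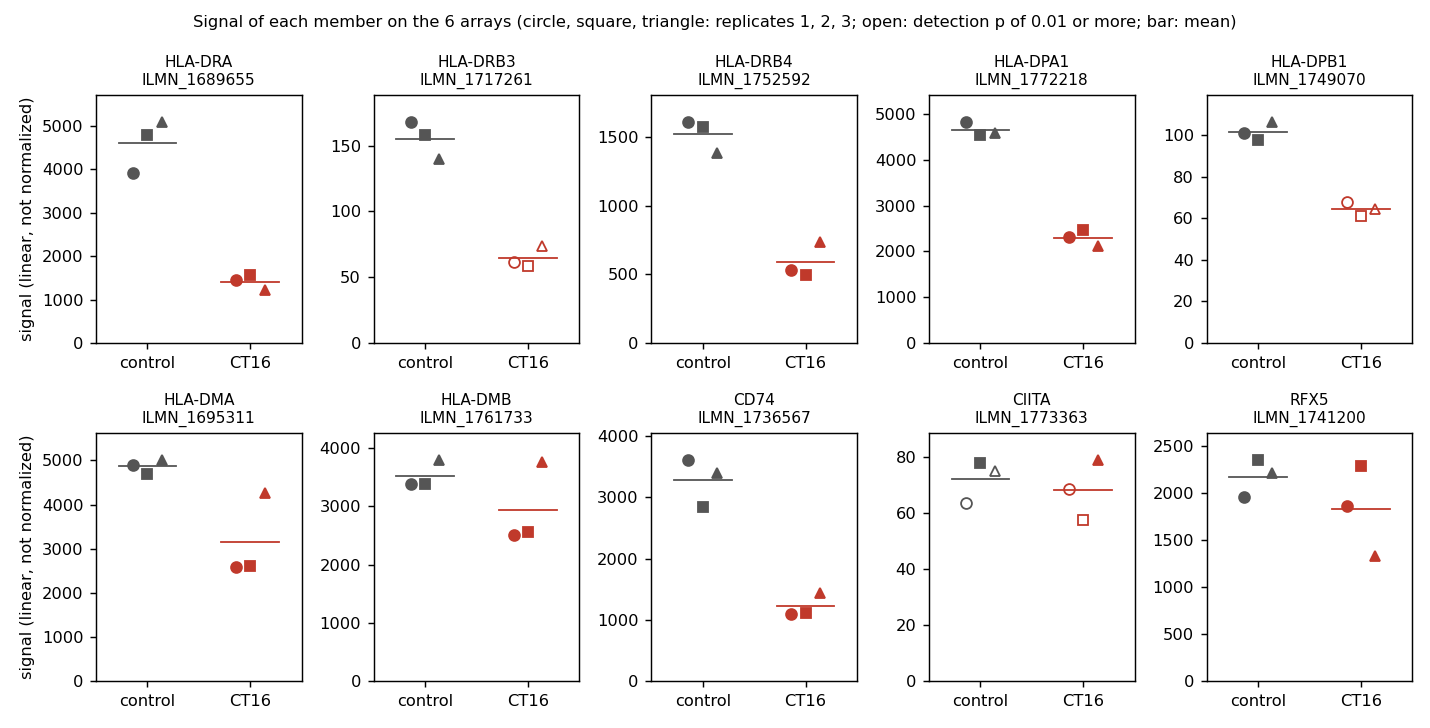
Signal of 1 probe per member (linear, vertical axis, not normalized) in control and CT16 cells. Circle, square and triangle are replicates 1, 2 and 3, open symbols have a detection p of 0.01 or more and bars are group means; HLA-DRA lies between 3922 and 5099 in the controls and between 1227 and 1577 in CT16 cells, whereas the groups overlap for HLA-DMB, CIITA and RFX5.

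HLA-DRA encodes the nearly invariant alpha chain of HLA-DR. Its probe ILMN_1689655 read 3922, 4806 and 5099 in control replicates 1, 2 and 3 and 1445, 1577 and 1227 in CT16 replicates 1, 2 and 3. All CT16 signals were below all control signals, with means of 4609 ± 613 and 1416 ± 177 (SD, n = 3 each). The normalized difference was -1.75 ± 0.20 (SE) on the log2 scale, 3.37-fold lower, with an adjusted p of 0.028 by limma. A second probe (ILMN_2157441) read 4019, 4740.0 and 4928 in the controls and 1347, 1549.6 and 1113 in CT16 cells, and it fell by 1.83 ± 0.20 (limma, adjusted p = 0.0226). Both probes were lowest on CT16 replicate 3, unlike most other members. The call of HLA-DRA was lost on leaving out any of the other arrays, with adjusted p = 0.169, 0.3 and 0.209 without control replicates 1, 2 and 3 and 0.201 and 0.109 without CT16 replicates 1 and 2. Its difference in these fits ranged from -1.82 to -1.69, and without CT16 replicate 3 it was -1.67 with an adjusted p of 0.00612 (limma).

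HLA-DRB3 encodes a beta chain of HLA-DR that is present only on some haplotypes. Its probe (ILMN_1717261) read 168, 158 and 139.7 in the controls and 61.7, 58.4 and 73.7 in CT16 cells. The CT16 signals were not detected on any array, with detection p-values of 0.211, 0.303 and 0.0391, so its level there has only a bound. On the background-corrected scale the probe was at least 3.10-fold lower in CT16 cells (limma, adjusted p = 0.0487, fitted difference -2.07 ± 0.27). The deposited signals, which include the background, had means of 155 ± 14.4 and 64.6 ± 8.06 (SD, n = 3 each). A bound of this kind sets the mean of the controls against the lowest signal of a detected probe on the CT16 arrays, or the probe's own signal where that is higher. HLA-DRB3 also lost its call without any single array other than CT16 replicate 3, with adjusted p between 0.151 and 0.36, and had an adjusted p of 0.00414 without that array (limma). Without background correction the fitted difference was -1.23, smaller than that bound, and did not pass (limma, adjusted p = 0.0848), so the bound holds only with the correction. Without the detection filter the adjusted p was 0.115 (limma).

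HLA-DRB4, the beta chain of another group of haplotypes, had 3 probes that did not move alike. ILMN_1752592 read 1612, 1571 and 1386 in the controls and 535, 498 and 738 in CT16 cells, and ILMN_2159694 read 618, 518 and 492 and then 232, 221 and 302. In both the groups did not overlap, but differences of -1.43 ± 0.31 and -1.17 ± 0.34 did not pass the test (limma, adjusted p = 0.215 and 0.462). The dimmer ILMN_1679617 read 138, 161 and 192 in the controls and 157, 179.9 and 210.3 in CT16 cells, an overlapping difference of 0.30 ± 0.31. HLA-DRB genes are near-identical in sequence and differ between people, so which DRB gene each of these probes read is uncertain. The same holds for the HLA-DRB3 probe.

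HLA-DPA1 and HLA-DPB1 encode the alpha and beta chains of HLA-DP. HLA-DPA1 (ILMN_1772218) read 4827, 4543 and 4577 in the controls and 2323, 2465 and 2107 in CT16 cells, with little spread within either group. Its difference was -1.07 ± 0.20 (limma, adjusted p = 0.141). HLA-DPB1 (ILMN_1749070) read 101, 97.6 and 106 in the controls and 67.8, 61.1 and 64.7 in CT16 cells, where no array detected it. On the background-corrected scale it was at least 1.69-fold lower (limma, adjusted p = 0.106). Without the correction, where this bound does not hold, the fitted difference was -0.65 (limma, adjusted p = 0.266). With the correction but an offset of 50, where the bound does not hold either, it was -0.66 (limma, adjusted p = 0.272). For both chains the 3 CT16 arrays lay together, CT16 replicate 3 being -0.12 and 0.04 away from the mean of CT16 replicates 1 and 2 on the log2 scale.

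CD74 was lower on each of its 3 probes without overlap between groups. The brightest (ILMN_1736567) read 3612, 2846 and 3401 in the controls and 1099, 1116 and 1439.7 in CT16 cells, with means of 3286 ± 396 and 1218 ± 192 (SD, n = 3 each). ILMN_2379644 read 1424, 1259.6 and 1479 in the controls and 484, 496 and 670.2 in CT16 cells. ILMN_1761464 read 139, 127 and 157 in the controls and 78.2, 78.9 and 83.2 in CT16 cells. The differences of -1.47 ± 0.27, -1.38 ± 0.30 and -1.27 ± 0.23 did not pass the test (limma, adjusted p = 0.134, 0.216 and 0.135). The probes are listed under the accessions of different CD74 transcripts and gave differences within 1 SE of each other.

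The HLA-DM genes showed differences that did not pass the test and moved with the CT16 arrays used. HLA-DMA (ILMN_1695311) read 4895, 4688 and 5014 in the controls and 2580.3, 2617 and 4263 in CT16 cells, a difference of -0.74 ± 0.26 (limma, adjusted p = 0.616). HLA-DMB (ILMN_1761733) read 3389.8, 3378 and 3798 in the controls and 2509, 2564 and 3759.6 in CT16 cells, a difference of -0.32 ± 0.24 (limma, adjusted p = 0.959). In both genes CT16 replicates 1 and 2 lay below all controls, while CT16 replicate 3 lay closer to them and, for HLA-DMB, within their range. Leaving out CT16 replicate 3 gave -0.94 ± 0.17 for HLA-DMA and -0.50 ± 0.17 for HLA-DMB, neither past the threshold (limma, adjusted p = 0.0562 and 0.322). Leaving out CT16 replicate 2 instead gave -0.59 ± 0.29 and -0.20 ± 0.28 (limma, adjusted p = 0.6 and 0.768).

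**Figure D2:**
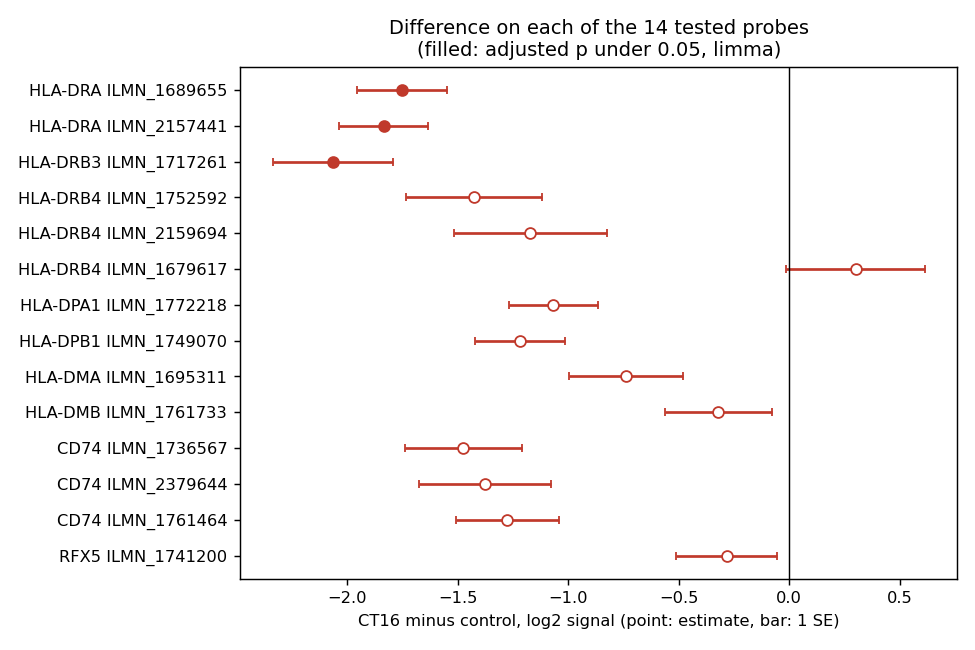
CT16 minus control difference in normalized log2 signal (horizontal axis) of each of the 14 tested member probes, with bars of 1 SE. Filled points passed an adjusted p of 0.05 by limma, namely both HLA-DRA probes and the HLA-DRB3 probe, and ILMN_1679617 of HLA-DRB4 is the only point above 0.

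Of the regulators, CIITA was near the limit of detection and could not be compared, and RFX5 did not pass the test. The CIITA probe (ILMN_1773363) read 63.5, 77.6 and 75.1 in the controls and 68.6, 57.4 and 78.9 in CT16 cells, and was detected on control replicate 2 and CT16 replicate 3 alone. The groups overlapped, with means of 72.1 ± 7.54 and 68.3 ± 10.8 (SD, n = 3 each) near the median signal of all probes, so a difference in CIITA was not detectable with this probe and it was not tested. RFX5, a DNA-binding subunit of the RFX complex, read 1952, 2352 and 2213 in the controls and 1864, 2290.2 and 1329.8 in CT16 cells on ILMN_1741200. Those signals overlapped before normalization, and the difference was -0.28 ± 0.23 (limma, adjusted p = 0.959). Without CT16 replicate 3, the lowest array, the RFX5 difference was -0.11 ± 0.16. A second RFX5 probe (ILMN_2363843) was detected on CT16 replicate 3 alone, at 90.6 beside 51.0 to 64.8 on the other arrays.

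CT16 replicate 3 differed from its group in a way that ran unevenly through the members. Its log2 level minus the mean of CT16 replicates 1 and 2 was 0.88 for HLA-DRB4, 0.67 for HLA-DMA, 0.59 for HLA-DRB3, 0.56 for HLA-DMB and 0.55 for CD74. It was -0.15 for HLA-DRA and -0.51 for RFX5. The median was 0.55 over the 9 genes, with 6 above 0, beside a median of 0.12 and a median absolute difference of 0.75 over all tested probes. On this array the median member lay at -1.11 relative to the control mean, beside -1.14 and -1.33 on CT16 replicates 1 and 2. On the controls it lay at 0.12, -0.12 and 0.04. Of the 10 member genes, 9, 10 and 9 were detected on the control arrays and 7, 7 and 8 on the CT16 arrays. These medians and numbers detected include HLA-DRB3 and HLA-DPB1, which no CT16 array detected. Their part in them is no support. Without CT16 replicate 3, 6 members fell past the threshold, namely HLA-DRA, HLA-DRB3, HLA-DRB4, HLA-DPA1, HLA-DPB1 and CD74, while 0.533% of all tested genes were called lower. With control replicate 1 left out as well, HLA-DMA was added, giving 7 of 9 members beside 0.888% of all genes. Both counts of members past the threshold include HLA-DRB3 and HLA-DPB1. These entered the test through the controls alone, so their part in the counts is no support. Leaving both arrays out was chosen after their values were seen.

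**Figure D3:**
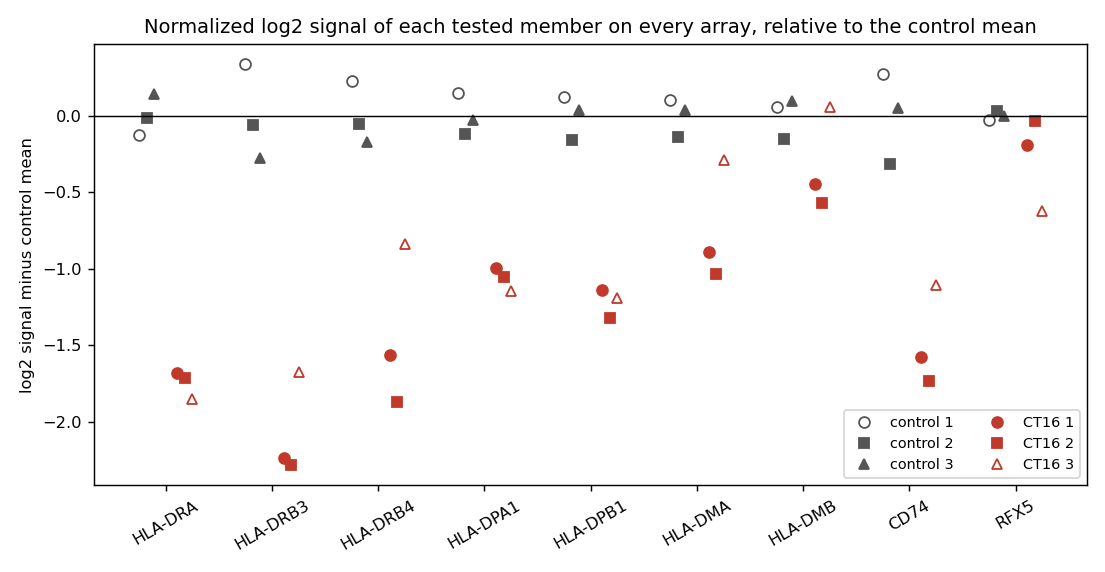
Normalized log2 signal of the brightest tested probe of each of 9 members on every array, relative to the mean of the controls (vertical axis). Open symbols are the arrays that stood apart, control replicate 1 and CT16 replicate 3; the latter lies above the other CT16 arrays for HLA-DRB3, HLA-DRB4, HLA-DMA, HLA-DMB and CD74 and below them for HLA-DRA, HLA-DPA1 and RFX5.

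Ranked by the rank product, the geometric mean of a probe's rank over the 9 CT16 by control array pairs, the HLA-DRA probes lay at positions 24 and 29 from the lowest of the 18156 tested probes. HLA-DRB4 followed at 42 and 70, CD74 at 43, 49 and 71, HLA-DPA1 at 145 and HLA-DMA at 252. HLA-DMB at 1750, RFX5 at 6058 and ILMN_1679617 of HLA-DRB4 at 12486 lay apart from these. HLA-DRB3 and HLA-DPB1 are given no position, since their CT16 signals were not detected. The positions describe the same contrast as the fit and carry no p-value.

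Probes of other class II chains were mostly below detection. Of 10 such genes, 8 had a probe, and those of HLA-DRB1, HLA-DRB5, HLA-DQA2, HLA-DQB1, HLA-DOA, HLA-DOB and HLA-DPB2 were not detected on any array. A probe of HLA-DRB6, a pseudogene related to the DRB genes, read 579.9, 553 and 544 in the controls and 226, 213 and 276 in CT16 cells. This difference of -1.31 ± 0.31 did not pass the test (limma, adjusted p = 0.285), and its groups did not overlap. The HLA-DRB1 probe read 51.4 to 58.6 over the 6 arrays, below the median signal of each. Which DRB gene a probe reads is uncertain here too, and an undetected probe does not show that its gene is silent.

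The factors that bind class II promoters beside RFX5 did not move together. In this list 6 of 7 genes were tested, none was called, and the median difference was 0.04 with 2 negative and 4 positive values. CREB1, which binds next to the RFX complex, differed by 0.06 ± 0.30 and RFXANK, an RFX subunit, by 0.14 ± 0.33. In both CT16 replicate 3 lay apart, at -0.73 and 1.01 from the mean of CT16 replicates 1 and 2 on the log2 scale. RFXAP, the remaining RFX subunit, read 112, 130.2 and 166 in the controls and 186, 228 and 130.7 in CT16 cells, a difference of 0.64 ± 0.24 (limma, adjusted p = 0.707). NFYA, a subunit of NF-Y, differed by -0.46 ± 0.22 (limma, adjusted p = 0.865). RFXAP and NFYA were named after their values were seen.

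From the interferon gamma receptor to CIITA, 9 of 11 listed genes were tested and none was called, with a median of -0.21. The receptor chain IFNGR2 differed by 0.08 ± 0.20 and the kinase JAK1 by -0.07 ± 0.24. Genes that process class II antigens gave a median of -0.17 over 12 tested of 14, none called, with differences from -0.46 to 0.23. In 4 of these 12 every CT16 array lay below every control array, beside 7.4% of all genes. In 1 every CT16 array lay above, beside 765 of 11264 genes. The lysosomal membrane protein LAMP1 differed by -0.08 ± 0.19 and the lysosomal protease CTSB by -0.35 ± 0.20. MHC class I presentation, which shows peptides from inside the cell to CD8+ T cells, gave a median of 0.00 over 15 tested of 18 genes, again with none called, 7 being negative and 8 positive. B2M, the light chain of class I molecules, differed by -0.17 ± 0.25 and HLA-B by -0.11 ± 0.21. Whether the class II members differ from these lists was not tested, and the values stand side by side as a description.

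**Figure D4:**
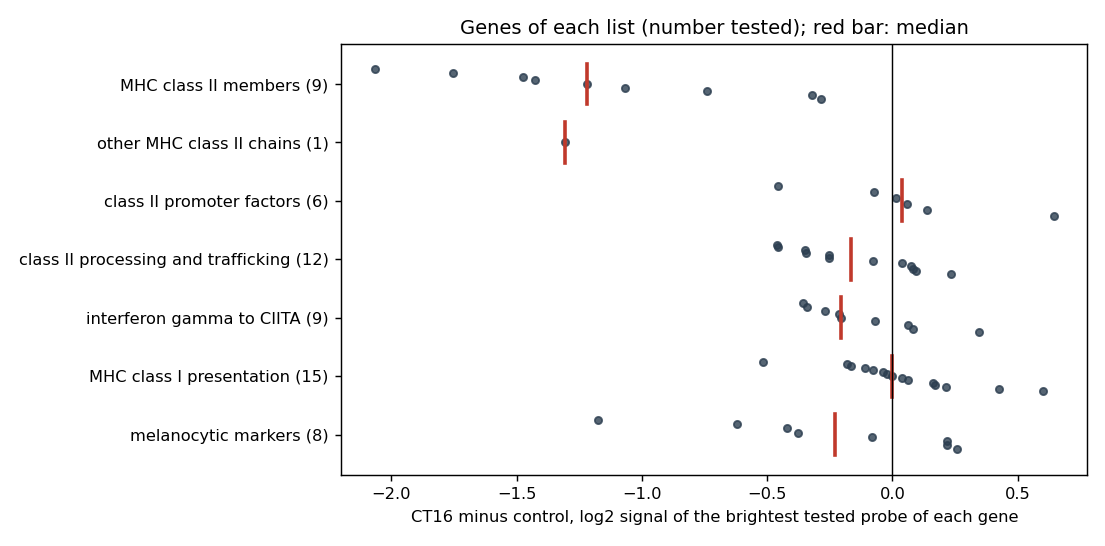
CT16 minus control log2 difference (horizontal axis) of the brightest tested probe of each gene, by gene list, with the number of tested genes in parentheses and a red bar at the median. The class II members have a median of -1.22, which includes HLA-DRB3 and HLA-DPB1, detected on no CT16 array. The medians of promoter factors, processing, the interferon gamma route, class I and melanocytic markers lie between -0.23 and 0.04.

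In a bulk RNA sample, fewer cells that make class II transcripts and less transcript per cell cannot be told apart. Of 14 markers of professional antigen-presenting cells with a probe, PTPRC, CD1C, FCER1A, CSF1R and CD80 were not detected on any array, PTPRC being the leukocyte common antigen. CD79B, CD14 and ITGAX were detected on all 6. The signals of the 14 brightest probes, background and undetected probes included, summed to 1805 to 2005 in the controls and 1797 to 2364 in CT16 cells. CD14 gave the largest part, with 667 to 851 in the controls and 733 to 1166 in CT16 cells. None of the 6 tested markers was called. Within that sum CD79B, a B cell receptor component, read 101, 114 and 94.7 in the controls and 136, 165 and 206 in CT16 cells, a difference of 1.07 ± 0.35 without overlap (limma, adjusted p = 0.555). CD79A, another B cell receptor component, went the other way by -0.20 ± 0.19, again without overlap (limma, adjusted p = 0.959). ITGAM, an integrin of myeloid cells, differed by -0.60 ± 0.27, also without overlap on the normalized scale (limma, adjusted p = 0.81). Of the 6 tested markers, 2 were lower and 1 higher without overlap, beside 833 and 765 of 11264 genes. The part of these markers in the class II differences was not tested. The melanocytic markers summed to 38262 to 41368 in the controls and 37785 to 41858 in CT16 cells, with none of 8 called. Within this sum the brightest, PMEL and TYR, went opposite ways without overlap on the normalized scale. PMEL differed by 0.26 ± 0.19 and TYR by -0.37 ± 0.23 (limma, adjusted p = 0.959 for both). TYRP1, a pigment enzyme, differed by -1.18 ± 0.59 with overlapping groups (limma, adjusted p = 0.906). CD79B, CD79A, ITGAM and TYRP1 were named after their values were seen.

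Outside the members, the genes whose level over the 6 arrays most resembled the mean of the standardized member levels were FXYD5, ARL9, HABP4, COL18A1 and GTF2IRD2. Their Pearson correlations were 0.997, 0.993, 0.992, 0.991 and 0.989 over 6 arrays, which share the division into 2 plasmids, so these are descriptions. FXYD5, a regulator of the sodium pump, read 12449, 12943 and 12435 in the controls and 7815, 8325 and 10022 in CT16 cells, a difference of -0.59 ± 0.19 (limma, adjusted p = 0.557). ARL9 differed by -0.97 ± 0.21 (limma, adjusted p = 0.207), and none of the 5 passed the test.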

How the data were processed

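The submitters' methods describe quantile normalization in Bioconductor and the rank product algorithm, and scanning with an Illumina BeadArray reader. The authors deposited linear probe intensity values without normalization, together with a detection p-value for each probe and array, and a second table of quantile normalized intensity, in which 99.9976% of values differed by at most 1% from a quantile normalization made here. No program is named for the detection p-values.

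From the unnormalized signals, the background was corrected with limma 3.58.1 in R 4.3.3 (nec, negative controls inferred from detection p-values, offset 16), followed by quantile normalization and log2. Probes with a detection p under 0.01 on at least 3 of 6 arrays were fitted with lmFit and eBayes, two-sided, with 1 term for the plasmid. Adjusted p-values were by Benjamini-Hochberg over 18156 probes, with a threshold of 0.05, and the script was tested on simulated data. Probes were named from the platform annotation, where 27578 had 1 symbol, 13 had several and 21212 were not listed. For each gene the brightest tested probe was taken. The members and lists were chosen with earlier results of these data known. All member probes are named, and of other lists the 2 brightest tested genes, with 5 genes most like the members. Alternatives covered background, offset, normalization, filter, weights, probe averaging, each array left out and the replicate block.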

Additional observations from a re-analysis of the deposited data

How the results depend on the processing

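Every difference of the 9 tested members kept its sign in all of the 160 values computed under 18 alternatives, and 31 of them changed their side of the threshold. The filters, the replicate block and the trended, robust prior cannot change a gene's difference, so the signs there were fixed in advance. The number of members called was 2 with median scaling, cyclic loess, a trended, robust prior and averaged probes. It was 1, HLA-DRA, without background correction, with an offset of 50, with the authors' normalized values and without the detection filter. It was 0 with detection on all 6 arrays, where 7 genes were left, 7 with array weights and 7 with both arrays that stood apart left out, and it ran from 0 to 6 with single arrays left out. Counts above 1 include HLA-DRB3, and those of 6 and 7 also HLA-DPB1, both of which entered through the controls alone. The cause of these changes was not tested. The median member difference was -1.05 without background correction, -1.06 with an offset of 50, -1.05 with the authors' values, -1.07 with detection on all 6 arrays, -1.08 with array weights and -1.07 with averaged probes. Leave-one-out values of the median were between -1.28 and -1.13. All these medians except that with detection on all 6 arrays include HLA-DRB3 and HLA-DPB1. Over the alternatives HLA-DRA had adjusted p from 6.94e-06 to 0.306 (limma) and was called in 11 of 18, and HLA-DRB3 from 3.62e-06 to 0.36 and was called in 7 of 17. Probes called lower over the array numbered 12 and higher 24, against 7 and 18 with the authors' values, 91 and 109 without CT16 replicate 3, 1103 and 1134 with array weights and 1 and 2 with the replicate block. The labels number the cultures but state no shared day. Deviations from the group means correlated at r = -0.62, 0.61 and -0.58 between same-numbered arrays. They correlated at 0.75 between control replicate 1 and CT16 replicate 3, the arrays that stood apart. With those arrays among the 3 per group, the values cannot show whether same-numbered arrays share a day. With the replicate block 0 members were called, and HLA-DRA and HLA-DRB3 each had an adjusted p of 0.306 (limma). The median was -1.22 as before, since a block of 1 array per plasmid cannot change it. CIITA, HLA-DRB3 and HLA-DPB1 lay at or near background in CT16 cells, where signal limits what can be measured, and 3 arrays per group limit the precision.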
